A study of Homo sapiens with 12 samples.

Results

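Actin and tubulin are the subunits of actin filaments and microtubules, and their genes are among the most heavily translated in a growing cell. Of the 6 actin and tubulin genes set for description, 5 were found in the deposited tables by transcript ID and coding length. These were ACTB (beta-actin, ENST00000646664), the alpha tubulins TUBA1B (ENST00000336023) and TUBA1C (ENST00000301072), and the beta tubulins TUBB (ENST00000327892) and TUBB4B (ENST00000340384). Each was followed as 1 transcript, of 100283 coding transcripts in the monosome tables and 93916 in the others. ACTG1 (gamma-actin) and a further transcript ID of ACTB were not analysed here. The genes were chosen by name and coding length, with no measured value used.

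The cells were wild-type HEK293T Flp-In, a human embryonic kidney line that carries an engineered recombination site. For 2 h they received girolline, an alkaloid of sponge origin, at 1 µM or 10 µM, or its solvent DMSO. The series title places girolline's effect on eIF5A, a factor that assists ribosomes at stretches of sequence where peptide bonds form slowly. Poly(A)-selected RNA-seq, monosome footprints (fragments shielded by a single ribosome) and disome footprints (longer fragments shielded by a pair of touching ribosomes) gave 3 kinds of library. Each kind had 2 DMSO libraries and 1 library per dose, 12 in all, so neither dose was replicated and both doses were set against the same DMSO pair. Total counts were 28424272 to 42194871 in RNA-seq, 21570489 to 38074691 in monosome and 3091715 to 5769026 in disome libraries. Markers of the cell line were not analysed here, because the tables name transcripts by ID only.

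Microtubules are built from dimers of 1 alpha and 1 beta tubulin, so cells make both proteins in matched amounts, while beta-actin forms the filaments of the cell cortex. Tubulin mRNAs are also under a known autoregulation, in which the first residues of the nascent chain are recognised at the ribosome and the mRNA is degraded when free dimers are in excess. A disome forms where a trailing ribosome catches up with a slower one, so disome counts on a gene reflect both its ribosome load and how often ribosomes meet.

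At 10 µM, disome footprints rose on both alpha tubulin genes and fell on ACTB and both beta tubulin genes. Monosome footprints were lower on all 5 genes, most on TUBB, and only TUBB stayed called by edgeR in the fit of all 12 libraries. None of the 5 mRNAs passed the test in RNA-seq. At 1 µM, disomes on TUBA1B rose and those on TUBB fell by less, and the other 3 genes did not pass the test. In disomes, DESeq2 made neither of these calls at 1 µM, and at 10 µM it called neither ACTB nor TUBB4B.

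The genes lie on 4 chromosomes in the RefSeq annotation of GRCh38.p14. ACTB spans chromosome 7 from 5527148 to 5530601. TUBA1B (chromosome 12, 49127782 to 49131395) and TUBA1C (chromosome 12, 49227926 to 49274600) are close neighbours. TUBB spans chromosome 6 from 30720352 to 30725422, and TUBB4B spans chromosome 9 from 137241287 to 137243707. With the stop codon their coding regions have 376 codons (ACTB), 452 (TUBA1B), 450 (TUBA1C), 445 (TUBB) and 446 (TUBB4B).

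Members of these families are close to identical in sequence, and RefSeq lists 14 pseudogenes named after ACTB, 11 after TUBB and 8 after TUBB4B. How reads that match several places were counted is not given in the sources used here, so the split of counts between related genes is uncertain, within the alpha and within the beta pair above all.

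Levels with DMSO were compared between genes as CPM, a count scaled to its library's total, per 1000 counted codons. In RNA-seq, TUBA1B had the highest mRNA level, 2287 ± 122 (SD, n = 2). TUBA1C followed at 1446 ± 81.3 and ACTB at 1274 ± 168. The DMSO ranges of these 2 genes overlapped, though TUBA1C lay above ACTB within each library (1504 against 1393 and 1389 against 1155). TUBB stood at 993 ± 53.4 and TUBB4B at 424 ± 46.9. The alpha tubulin mRNAs thus lay above the beta tubulin mRNAs in both DMSO libraries.

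On the same per-length scale, the monosome level was 2924 ± 21.1 on TUBA1B, 2722 ± 57.9 on ACTB, 2221 ± 26.6 on TUBA1C, 2010 ± 20.9 on TUBB and 826 ± 1.86 on TUBB4B (SD, n = 2). No 2 of these genes overlapped between the DMSO libraries. The disome order was different and was led by TUBB. Its disome level was 3860 ± 395, against 2554 ± 494 on ACTB, 2185 ± 235 on TUBA1B, 1397 ± 195 on TUBB4B and 1200 ± 128 on TUBA1C (SD, n = 2). The ranges of ACTB and TUBA1B overlapped between the DMSO libraries, as did those of TUBB4B and TUBA1C. Within each library, though, ACTB lay above TUBA1B (2903 against 2351 and 2205 against 2019). TUBB4B likewise lay above TUBA1C within each library (1535 against 1290 and 1259 against 1109).

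The beta tubulin genes carried more disome footprints per monosome footprint than the alpha tubulin genes. With DMSO, the ratio of disome to monosome CPM was 2.12 and 1.81 on TUBB and 1.90 and 1.56 on TUBB4B in the replicates 1 and 2. It was 0.818 and 0.710 on TUBA1B and 0.589 and 0.515 on TUBA1C, with ACTB between at 1.11 and 0.820. Every beta value lay above every alpha value. At 10 µM the ratio came to 1.15 on TUBB, 1.33 on TUBB4B, 1.24 on TUBA1B, 0.914 on TUBA1C and 0.591 on ACTB. The 4 tubulin genes, which had spread from 0.589 to 2.12 in DMSO 1 and from 0.515 to 1.81 in DMSO 2, then lay between 0.914 and 1.33.

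**Figure D1:**
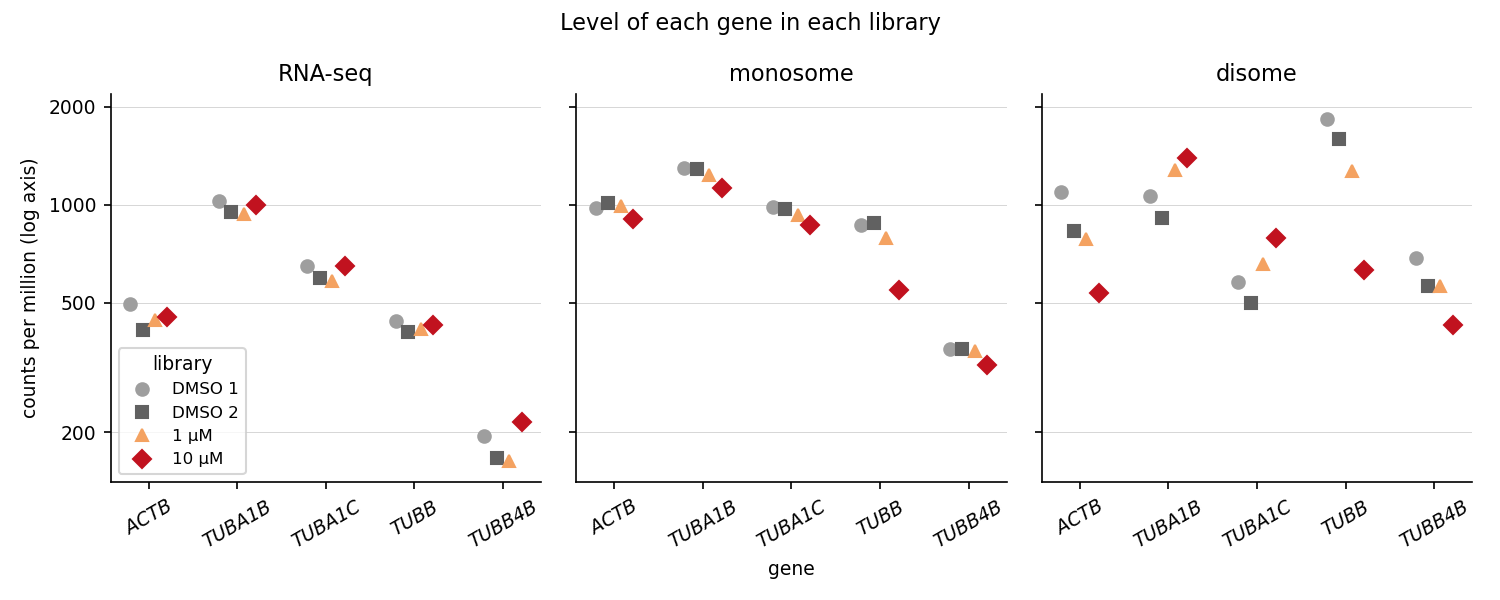
CPM (log axis) of each gene in each library, in a panel per kind; grey circles and squares are the 2 DMSO libraries, orange triangles 1 µM and red diamonds 10 µM. In the disome panel the 10 µM library lies above DMSO for TUBA1B and TUBA1C and below DMSO for ACTB, TUBB and TUBB4B, while in RNA-seq it lies close to the DMSO pair.

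The first comparison asked whether mRNA levels moved within 2 h. ACTB mRNA stood at 496 and 411 CPM with DMSO, then 442 CPM with 1 µM and 451 CPM with 10 µM. TUBA1B stood at 1025 and 951 CPM with DMSO, then 936 CPM with 1 µM and 996 CPM with 10 µM. TUBA1C stood at 647 and 597 CPM with DMSO, then 584 CPM with 1 µM and 647 CPM with 10 µM. For these 3 genes, girolline libraries in CPM lay inside or within a few percent of the DMSO range.

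TUBB mRNA stood at 438 and 406 CPM with DMSO, then 414 CPM with 1 µM and 426 CPM with 10 µM. TUBB4B stood at 195 and 167 CPM with DMSO, then 163 CPM with 1 µM and 215 CPM with 10 µM. In CPM, TUBB at both doses was inside its DMSO range, though after TMM scaling its 1 µM library fell just below that range. TUBB4B was below its range at 1 µM and above it at 10 µM on both scales.

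The log2 fold changes of mRNA level at 10 µM were -0.05 for ACTB (SE 0.15), -0.03 for TUBA1B (SE 0.14), 0.01 for TUBA1C (SE 0.15), -0.03 for TUBB (SE 0.15) and 0.21 for TUBB4B (SE 0.16). The quasi-likelihood test of edgeR, its p-values adjusted by Benjamini-Hochberg over all transcripts and read at a false discovery rate of 0.05, called 0 of the 5 genes and 1.11% of 56229 transcripts. At 1 µM the test called 0 of 5 and 0% of all transcripts, with values from -0.19 for TUBB4B to -0.07 for TUBB. Between 10 µM and 1 µM it called 0 of 5 and 0.427% of all, and TUBB4B differed most, by 0.40 (SE 0.19, adjusted p = 0.668). In these 3 comparisons 0, 0 and 1 of the 5 had an unadjusted p under 0.05, and DESeq2 called 0. TUBB4B was also fitted without RNA-seq DMSO 1 or 2, in edgeR fits of all kinds together. It had 0.32 or 0.11 at 10 µM, and 0.40 in both fits between the doses. RNA-seq then had no replicate, and the spread came from the monosome and disome DMSO pairs, so no call is read from these fits here.

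The second comparison asked whether monosome footprints on these coding regions changed. All 5 genes had fewer at 10 µM, relative to the other transcripts of the library, and TUBB fell most. TUBB had 868 and 881 monosome CPM with DMSO, then 789 CPM with 1 µM and 548 CPM with 10 µM. Both doses were below the DMSO pair, and 10 µM was the lowest library. The log2 fold change of TUBB at 10 µM was -0.74 (SE 0.05, adjusted p = 1.9e-23), a value below those of all but 5.95% of transcripts tested by edgeR.

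The other 4 genes fell by less. ACTB had 981 and 1011 monosome CPM with DMSO, then 994 CPM with 1 µM and 905 CPM with 10 µM. TUBA1B had 1299 and 1286 CPM with DMSO, then 1234 CPM with 1 µM and 1124 CPM with 10 µM. TUBA1C had 986 and 969 CPM with DMSO, then 933 CPM with 1 µM and 867 CPM with 10 µM. These 3 genes were lowest at 10 µM, and only ACTB at 1 µM lay within its DMSO range. TUBB4B, with 360 and 361 monosome CPM with DMSO, had 354 CPM at 1 µM and 321 CPM at 10 µM, and was lowest at 10 µM too. The log2 fold changes at 10 µM were -0.21 for ACTB (adjusted p = 0.000759), -0.27 for TUBA1B (6.7e-06), -0.24 for TUBA1C (7.97e-05) and -0.24 for TUBB4B (0.00042), in the same edgeR test.

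All 5 of 5 genes were therefore called lower at 10 µM, where 15.7% of 55409 transcripts were called lower. Their median log2 fold change was -0.24, against 0.01 over all transcripts tested. Apart from TUBB, the values of the genes lay above those of 25.8% (TUBA1B) to 30.8% (ACTB) of transcripts tested, so many transcripts fell more. At 1 µM edgeR called 0 of 5 (background 1.78%), as did DESeq2. TUBB, the 1 member with an unadjusted p under 0.05 there, had a log2 fold change of -0.15 (SE 0.05, adjusted p = 0.148). Between 10 µM and 1 µM all 5 were called lower (background 6.34% lower), TUBB at -0.59 (SE 0.06, adjusted p = 8.43e-14) and the others at -0.18 (TUBA1C) to -0.21 (TUBB4B). Of these only TUBB stayed called under DESeq2 (adjusted p = 0.121 for ACTB, 0.11 for TUBA1B, 0.207 for TUBA1C and 0.153 for TUBB4B), total counts, a filter of 10 CPM, the fit of all 12 libraries or without either monosome DMSO library. The 4 smaller falls at 10 µM rest on the narrow spread of the monosome DMSO pair, which differed by 0.00415 to 0.043 on the log2 scale for these genes. With the spread shared by all 12 libraries edgeR called only TUBB, as it did without either monosome DMSO library, and with both doses as 1 group it called 0 of 5.

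The third comparison asked how disome footprints changed, relative to the other transcripts of the library, and here the genes split by type. On the alpha tubulins they rose. TUBA1B had 1063 and 913 disome CPM with DMSO, then 1280 CPM with 1 µM and 1393 CPM with 10 µM. TUBA1C had 581 and 499 CPM with DMSO, then 658 CPM with 1 µM and 792 CPM with 10 µM. On both genes each dose was above both DMSO libraries, and 10 µM was the highest. The log2 fold change at 10 µM was 0.59 for TUBA1B (SE 0.11, adjusted p = 2.69e-06) and 0.65 for TUBA1C (SE 0.13, adjusted p = 4.61e-06), both by edgeR.

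On the beta tubulins disome footprints fell. TUBB had 1842 and 1593 disome CPM with DMSO, then 1273 CPM with 1 µM and 631 CPM with 10 µM. It was the member with most disome footprints under DMSO, and both doses lay below both DMSO libraries. At 10 µM it changed by -1.35 on the log2 scale (SE 0.12, adjusted p = 1.78e-26 by edgeR), a value below those of all but 6% of transcripts tested. TUBB4B had 684 and 561 CPM with DMSO, then 563 CPM with 1 µM and 428 CPM with 10 µM. For TUBB4B the 1 µM library was inside the DMSO range and the 10 µM library below it, at a log2 fold change of -0.45 (SE 0.14, adjusted p = 0.00504 by edgeR).

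ACTB had 1092 and 829 disome CPM with DMSO, then 785 CPM with 1 µM and 535 CPM with 10 µM. In CPM both doses were below the DMSO pair, but after TMM scaling the 1 µM library lay between the DMSO libraries. Those 2 libraries differed by 0.44 on the log2 scale after scaling, the widest of the 5 genes. At 10 µM it changed by -0.75 on the log2 scale (SE 0.13, adjusted p = 1.1e-07 by edgeR).

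At 10 µM edgeR thus called 2 of 5 genes higher, where 20.8% of 34606 transcripts were called higher, and 3 of 5 lower, where 14.9% were. DESeq2 called 3 of 5 and lost ACTB (adjusted p = 0.182) and TUBB4B (adjusted p = 0.199). TUBB4B also lost its call without disome DMSO 1, at -0.26 with adjusted p = 0.156 in edgeR, and with both doses as 1 group edgeR called 0 of 5. Scaling by total counts in place of TMM lowered the median over all transcripts by 0.11 on the log2 scale (a shift of -0.11) and changed no direction or call among the 5 genes in this comparison.

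At 1 µM TUBA1B was called higher (background 5.39%), at 0.43 (SE 0.11, adjusted p = 0.00536), and TUBB lower (background 1.68%), at -0.37 (SE 0.12, adjusted p = 0.0246), in the edgeR test. TUBA1C had 0.35 (adjusted p = 0.0834), ACTB -0.23 (adjusted p = 0.303) and TUBB4B -0.09 (adjusted p = 0.782). The 2 calls at 1 µM were lost under DESeq2 (adjusted p = 0.405 for TUBA1B and 0.457 for TUBB). TUBA1B lost its call without disome DMSO 2 (0.35, adjusted p = 0.0821). TUBB lost its call without disome DMSO 1 (-0.19, adjusted p = 0.431), where TUBA1C gained one (0.54, adjusted p = 0.00433) and ACTB had 0.06 in place of -0.23. The fit of all 12 libraries likewise lost TUBB (adjusted p = 0.065) and called TUBA1C (adjusted p = 0.0272), by edgeR.

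Between 10 µM and 1 µM, disome footprints fell further on TUBB, with a log2 difference of -0.98 (SE 0.13, adjusted p = 1.17e-10), and on ACTB, with -0.52 (SE 0.15, adjusted p = 0.00643), in the edgeR test. These were 2 of 5 genes called lower, where 4.36% of transcripts were. The alpha tubulins differed by 0.16 for TUBA1B (adjusted p = 0.51) and 0.30 for TUBA1C (adjusted p = 0.19), so a further rise from 1 to 10 µM was not detectable. TUBB4B had -0.36 (adjusted p = 0.117). Without disome DMSO 1 or 2 it had -0.40, in fits of all kinds together whose spread came from the DMSO pairs of the other kinds. DESeq2 called only TUBB, and gave ACTB adjusted p = 0.602.

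**Figure D2:**
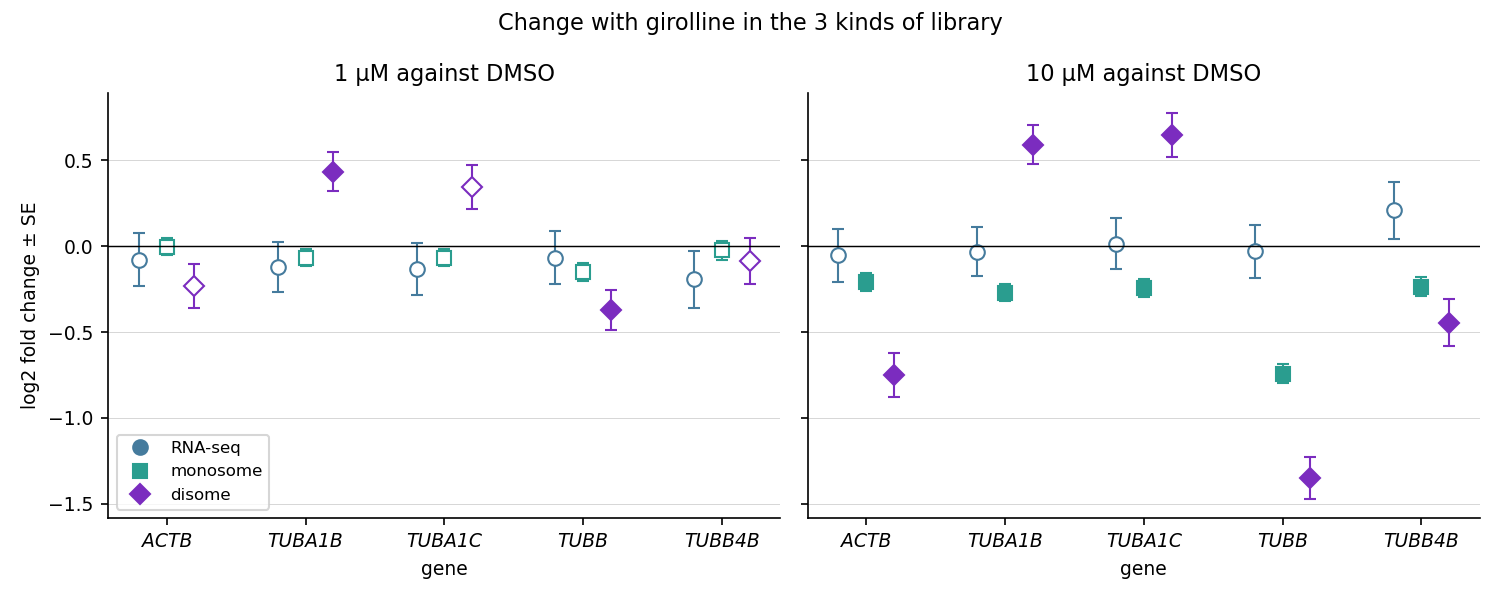
Log2 fold change against DMSO for each gene, with its standard error as the bar, at 1 µM (left) and 10 µM (right), in RNA-seq (circles), monosome (squares) and disome libraries (diamonds); filled symbols passed edgeR's test at a false discovery rate of 0.05. At 10 µM the disome values run from -1.35 for TUBB to 0.65 for TUBA1C while the RNA-seq values lie between -0.05 and 0.21.

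Counts of a pair of genes in the same library can be set against each other without any scaling between libraries. In disomes, TUBB had 5695 counts to 3286 of TUBA1B in DMSO 1 and 8209 to 4702 in DMSO 2, ratios of 1.73 and 1.75. At 1 µM the counts were 5990 and 6023, a ratio of 0.995 (95% exact interval 0.959 to 1.03, counting error only). At 10 µM they were 3642 and 8034, a ratio of 0.453 (0.436 to 0.471). TUBB thus went from clearly above TUBA1B in disomes to clearly below it, in the order of the doses. The same ratio in monosomes was 0.668 and 0.685 with DMSO, then 0.639 with 1 µM and 0.488 with 10 µM. In RNA-seq it was 0.427 in both DMSO libraries, 0.443 at 1 µM and 0.427 at 10 µM, so no such shift was seen in the mRNAs.

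The split of counts within the alpha and within the beta pair is uncertain, as said above. Within the alpha pair the balance moved little. TUBA1C to TUBA1B in disomes was 0.546 and 0.547 with DMSO, then 0.514 with 1 µM and 0.569 with 10 µM, and the exact 95% interval of each dose overlapped those of both DMSO libraries, while those of the 2 doses (0.492 to 0.537 and 0.548 to 0.590) did not overlap. Within the beta pair it moved. TUBB to TUBB4B in disomes was 2.69 and 2.84 with DMSO, then 2.26 with 1 µM and 1.48 with 10 µM. In monosomes that ratio was 2.41 and 2.44 with DMSO, then 2.23 with 1 µM and 1.71 with 10 µM, and in RNA-seq 2.25 and 2.44, then 2.55 and 1.98. The 10 µM library was the lowest in all 3 kinds, RNA-seq included. These ratios compare single libraries, and beyond the DMSO pair they have no replicate error.

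**Figure D3:**
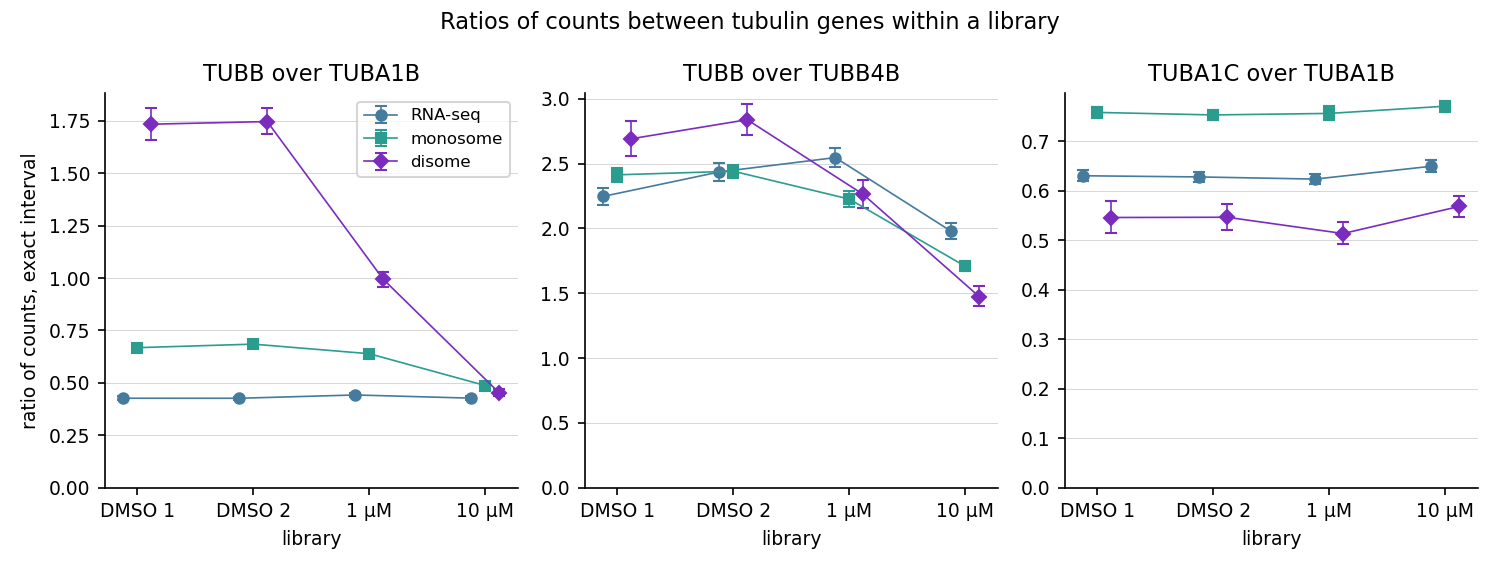
Ratio of counts between a pair of tubulin genes in each library (x axis), with exact 95% intervals for counting error, in RNA-seq (circles), monosome (squares) and disome libraries (diamonds). The disome ratio of TUBB to TUBA1B goes from 1.73 and 1.75 with DMSO to 0.453 at 10 µM, while that of TUBA1C to TUBA1B stays between 0.514 and 0.569.

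The changes in disomes were then set against those in the other kinds, as the difference between kinds in the response to a dose. Relative to RNA-seq, disomes at 10 µM changed by 0.67 on TUBA1B (SE 0.19, adjusted p = 0.00303), 0.69 on TUBA1C (SE 0.20, adjusted p = 0.00441) and -1.27 on TUBB (SE 0.19, adjusted p = 2.18e-09), by edgeR. ACTB had -0.65 (adjusted p = 0.00822) and TUBB4B -0.60 (adjusted p = 0.0222). That is 2 of 5 higher, where 12.9% of 44809 transcripts were called higher, and 3 of 5 lower, where 7.24% were. Only the call of TUBB stood under all alternatives run: DESeq2 and the fit without disome DMSO 1 lost ACTB and TUBB4B, the fit without RNA-seq DMSO 2 lost TUBB4B, and the fit without disome DMSO 2 lost TUBA1B and TUBA1C (adjusted p = 0.0808 and 0.091). At 1 µM edgeR and DESeq2 called 0 of 5 (background 1.78% by edgeR), 2 of the 5 had an unadjusted p under 0.05, and TUBA1B had 0.58 (SE 0.19, adjusted p = 0.0798). TUBA1B was called without RNA-seq DMSO 2 (adjusted p = 0.0367), in the fit of all 12 libraries (0.0136) and with a filter of 10 CPM (0.0259), by edgeR.

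Relative to monosomes, disomes at 10 µM were higher on TUBA1B, by 0.87 (SE 0.13, adjusted p = 1.21e-07), and on TUBA1C, by 0.90 (SE 0.13, adjusted p = 1.22e-07), in the edgeR test. They were lower on TUBB, at -0.60 (SE 0.13, adjusted p = 0.000265), and on ACTB, at -0.53 (SE 0.14, adjusted p = 0.00321). TUBB4B had -0.20 (SE 0.14, adjusted p = 0.365). The calls were 2 of 5 higher, where 12.1% of 41670 transcripts were, and 2 of 5 lower, where 6.52% were. The disome fall on TUBB was thus larger than its monosome fall, and the alpha tubulins gained disomes while their monosomes fell. ACTB was not called by DESeq2 (adjusted p = 0.184) and had -0.31 without disome DMSO 1, and TUBB4B gained a call without disome DMSO 2 (-0.32, adjusted p = 0.00944).

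At 1 µM the same contrast was called higher on TUBA1B, at 0.53 (SE 0.13, adjusted p = 0.00647), and on TUBA1C, at 0.44 (SE 0.13, adjusted p = 0.0462), by edgeR, where 2.7% of transcripts were called higher. The other 3 genes had -0.03 to -0.20. In edgeR TUBA1C lost its call with DESeq2 size factors (adjusted p = 0.0566), total counts (0.149), a filter of 10 CPM (0.107) and the fit of all 12 libraries (0.166). Without either monosome DMSO library both calls were lost (adjusted p = 0.104 to 0.389), DESeq2 made none of them, and without disome DMSO 2 ACTB (-0.40) and TUBB (-0.31) were called lower as well.

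Relative to RNA-seq, monosomes at 10 µM were called lower on TUBB alone, at -0.71 (SE 0.13, adjusted p = 0.000851 by edgeR), 1 of 5 genes where 3.94% of 47514 transcripts were called lower. TUBB4B had -0.45 (adjusted p = 0.0564), TUBA1C -0.26 (adjusted p = 0.221), TUBA1B -0.24 (adjusted p = 0.237) and ACTB -0.16 (adjusted p = 0.549). The calls in this contrast changed when a DMSO library was left out. The kind of that library then has no replicate, so the spread comes from the DMSO pair of the other kind. Without RNA-seq DMSO 1 and 2, TUBB had -0.76 and -0.67 (SE 0.08 in both). Without monosome DMSO 1 and 2 it had -0.72 and -0.70 (SE 0.23 in both). The estimate of TUBB thus moved little, while its SE changed with the kind that gave the spread. ACTB moved more, with -0.29 and -0.04 without RNA-seq DMSO 1 and 2. At 1 µM edgeR and DESeq2 called 0 of 5, 0 of the 5 had an unadjusted p under 0.05, and 0.0021% of all transcripts were called by edgeR.

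Shorter transcripts listed beside the 5 genes gave a coarse view of where in a coding region the counts lay. These rows were picked after the tables had been seen, so their values are given with no test, and the files name no gene for them. If a row is an isoform whose coding region lies within that of its neighbour, its count is the part of the gene's count in the shared codons, and the rest lies outside them. Which end of the coding region it shares is not given.

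The rows given first for TUBB and TUBA1B are those whose disome count changed most at 10 µM among the rows beside each gene. For TUBB this row has 373 codons, 72 fewer than the gene. It held 5413 of 5695 disome counts in DMSO 1, 7764 of 8209 in DMSO 2, 5278 of 5990 at 1 µM and 2631 of 3642 at 10 µM. These are 95.0% and 94.6% with DMSO, then 88.1% with 1 µM and 72.2% with 10 µM (exact 95% interval 70.8% to 73.7%). The share was lower at each dose than in both DMSO libraries. The remainder, 282 and 445 counts with DMSO, then 712 with 1 µM and 1011 with 10 µM, went from 91.2 and 86.4 CPM to 151 and 175 CPM. The row itself had a log2 fold change of -1.74 at 10 µM (SE 0.13), against -1.35 for the gene.

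The other kinds showed no shift of that size in this row. Its share of TUBB monosome counts was 81.4% and 80.7% with DMSO, then 81.1% with 1 µM and 78.8% with 10 µM. Its share of TUBB RNA-seq counts was 88.4% and 88.1% with DMSO, then 88.4% with 1 µM and 89.8% with 10 µM.

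Beside TUBA1B, a row of 247 codons, 205 fewer than the gene, took a larger share of disome counts with girolline. It held 1107 of 3286 disome counts in DMSO 1 and 1785 of 4702 in DMSO 2, 33.7% and 38.0%. At 1 µM it held 2501 of 6023, 41.5%, and at 10 µM 4699 of 8034, 58.5% (exact 95% interval 57.4% to 59.6%). Both doses lay above the DMSO pair, which itself differed by more than its counting intervals. The row had log2 fold changes of 1.31 at 10 µM (SE 0.13) and 0.65 at 1 µM (SE 0.13). The counts outside it were 705 and 566 CPM with DMSO, then 749 CPM with 1 µM and 578 CPM with 10 µM, so the 10 µM value lay inside the DMSO range. Its share of TUBA1B monosome counts stayed between 54.3% and 55.6%, and that of RNA-seq counts between 54.3% and 59.3%.

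**Figure D4:**
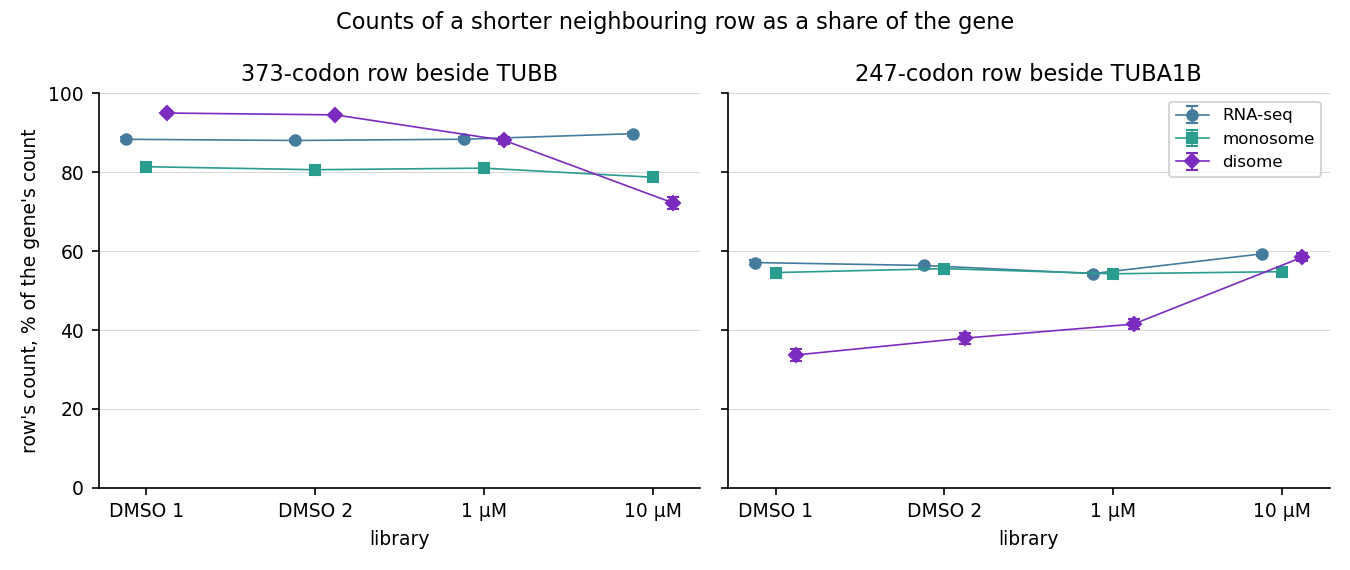
Count of a shorter neighbouring row as a percentage of the gene's count in each library (x axis), for the 373-codon row beside TUBB (left) and the 247-codon row beside TUBA1B (right), with exact 95% intervals for counting error; circles are RNA-seq, squares monosome and diamonds disome libraries. The disome share falls from 95.0% and 94.6% to 72.2% on the left and goes from 33.7% and 38.0% to 58.5% on the right.

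The shares of the rows beside TUBA1C and ACTB moved by fewer percentage points. A row of 131 codons beside TUBA1C held 13.5% and 17.3% of its disome counts with DMSO, then 11.9% with 1 µM and 12.6% with 10 µM, and had a log2 fold change of 0.37 at 10 µM (SE 0.19). Under the same reading, the disome counts outside that row went from 502 and 413 CPM to 580 CPM at 1 µM and 692 CPM at 10 µM. Of the 4 rows beside ACTB, one of 164 codons held 21.9% and 30.5% of its disome counts with DMSO, then 21.1% with 1 µM and 23.3% with 10 µM, with the 10 µM share inside the DMSO range. The log2 fold changes of the ACTB rows at 10 µM were -0.88 (164 codons, SE 0.17), -0.50 (126 codons, SE 0.19), -0.37 (103 codons, SE 0.19) and -0.39 (99 codons, SE 0.19). Also beside TUBB, a row of 427 codons held 99.0% and 99.2% of its disome counts with DMSO and 96.0% at 10 µM. Its share of TUBB monosome counts fell too, from 97.1% and 97.1% with DMSO to 96.2% with 1 µM and 94.3% with 10 µM. Its share of TUBB RNA-seq counts was 97.2% and 97.0% with DMSO and 97.6% at 10 µM. Beside TUBA1B, rows of 75 and 81 codons had log2 fold changes of 0.63 (SE 0.18) and 0.60 (SE 0.17) at 10 µM, close to the 0.59 of the gene. At 1 µM they had 0.01 (SE 0.18) and -0.04 (SE 0.18), against 0.43 for the gene. No such row was found beside TUBB4B.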

How the data were processed

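For every library the authors deposited unnormalized counts of reads, listed by transcript ID with a length. Build hg38, STAR 2.7.0a and CASAVA 1.8 appear in the submitters' processing notes. Counting tool, annotation and the fate of reads matching several places are not given in the sources used here. Monosome tables use Ensembl IDs and the others UCSC IDs, so 76301 coding rows were paired by a longest common subsequence of coding lengths in file order. Of these, 90.17% kept their partner when ties were taken from the other end, all 5 genes among them. RNA-seq lengths lack 20 codons and monosome lengths 10, which were added back for pairing.

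Rows with identical counts were merged. Testing used edgeR 4.0.16 (R 4.3.3) with TMM, filterByExpr and quasi-likelihood F-tests, adjusted by Benjamini-Hochberg over all rows at FDR 0.05. Each kind was fitted by itself in 3 groups, and pairs of kinds by an interaction. The unreplicated doses are assumed to vary as the DMSO pair does. DESeq2 1.42.0 and other scalings, filters and left-out libraries were alternatives. Fits that leave out a library used all kinds together for the changes within a kind. For a contrast between kinds they used only the libraries of the kinds compared. The kind of the left-out library then has no replicate, so the spread comes from the DMSO pairs of the other kinds in the fit.

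DMSO pairs differed beyond sampling noise: over transcripts of 20 or more counts, chi-square divided by its degrees of freedom was 6.62 (RNA-seq), 1.71 (monosome) and 2.09 (disome). Whether they were separate cultures is not stated in the labels, and p-values therefore cover the spread among these samples alone, possibly a technical one. Replicate numbers are not said to mark a shared culture or day. Intervals and shares cover counting error only.

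The genes named are the members and, in the closing section, the 2 transcripts nearest in pattern to actin and to the tubulin mean. They, the lists and the neighbouring rows (within 5 rows, holding at least 10% of a gene's DMSO disome counts) were chosen with earlier results of these data known. Other cytoskeletal genes were not analysed here, as IDs carry no gene names.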

Additional observations from a re-analysis of the deposited data

How the results depend on the processing

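The limits below rest on 2 DMSO libraries and 1 library per dose of each kind. Of 760 log2 fold changes of the 5 genes under alternatives, 643 kept their direction and side of the threshold, 75 lost a call, 22 gained one and 20 changed sign. None of the 20 had been called. Of 153 counts under alternatives, 115 stayed within 1.5 times. They were counts of genes called, with the count of genes paired between the kinds among them. A count with no call on either side was taken as kept.

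The sign changes without leaving out a library were small. At 10 µM in RNA-seq, total counts gave 0.0083 for TUBA1B and 0.0099 for TUBB, and both doses as 1 group gave -0.058 for TUBA1C. At 1 µM in monosomes, ACTB had 0.00034 under total counts and 0.016 under the filter of 10 CPM. Pairing rows from the other end gave 0.0094 for TUBB4B in disomes relative to monosomes at 1 µM.

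With 1 library left out, RNA-seq at 10 µM gave -0.17 to 0.080 for ACTB, -0.071 to 0.015 for TUBA1B, -0.028 to 0.064 for TUBA1C and -0.069 to 0.017 for TUBB, and at 1 µM -0.19 to 0.052 for ACTB. At 1 µM ACTB gave -0.025 to 0.017 in monosomes, -0.40 to 0.058 in disomes, -0.32 to 0.10 in disomes relative to RNA-seq, -0.055 to 0.19 in monosomes relative to RNA-seq and -0.40 to 0.052 in disomes relative to monosomes. TUBB4B gave -0.20 to 0.14, -0.014 to 0.30 and -0.18 to 0.16 at 1 µM in disomes and in disomes relative to RNA-seq and to monosomes.

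Counts of genes called with 1 library left out were 0 to 1 in RNA-seq at 10 µM, 1 between the doses in RNA-seq, 1 in monosomes at 10 µM and between the doses, and 1 to 2 in disomes at 1 µM. They were 3 to 5 and 0 to 1 in disomes relative to RNA-seq at 10 and 1 µM, 0 to 5 in monosomes relative to RNA-seq at 10 µM and 0 to 4 in disomes relative to monosomes at 1 µM.

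Both doses as 1 group gave 0 calls in monosomes and 0 in disomes. The fit of all 12 libraries gave 1 in monosomes at 10 µM and 1 between the doses, 1 in disomes relative to RNA-seq and 1 relative to monosomes at 1 µM. Monosomes between the doses gave 1 under total counts, DESeq2 and a mean of at least 10 CPM. DESeq2 gave 3 in disomes at 10 µM, 0 at 1 µM and 1 between the doses, 3 in disomes relative to RNA-seq at 10 µM and 0 relative to monosomes at 1 µM. A mean of at least 10 CPM gave 1 in disomes relative to RNA-seq at 1 µM. DESeq2 size factors in edgeR gave 2 in monosomes relative to RNA-seq at 10 µM and 1 in disomes relative to monosomes at 1 µM, where total counts and a mean of at least 10 CPM also gave 1. The cause was not tested. Leaving out a library and both doses as 1 group change the samples or the spread by construction.

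Replicate numbers gave no firm pairing: deviations of equal numbers correlated at 0.26 between disomes and RNA-seq, -0.11 between monosomes and RNA-seq and 0.05 between disomes and monosomes, over 11159 rows. With the replicate number as a block, disomes relative to RNA-seq at 1 µM gave 1 call (TUBA1B, 0.59, adjusted p = 0.0275 by edgeR) in place of 0, and no other count of calls moved by over 1.5 times. With crossed numbers, monosomes relative to RNA-seq gave 2 calls at 10 µM and 0 at 1 µM.

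Over full coding lengths, monosome DMSO levels were 2650 (ACTB), 2860 (TUBA1B), 2172 (TUBA1C), 1965 (TUBB) and 808 (TUBB4B) CPM per 1000 codons, in an order led by TUBA1B as before. The alternative with the other transcript ID of ACTB was not run, as that transcript was not analysed here.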

Other observations

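The transcripts whose pattern over the 12 libraries came nearest to that of these genes were sought among 9011 transcripts with a mean of at least 10 CPM in each kind, away from the genes themselves, by Euclidean distance between log2 values set against the DMSO mean of each kind. Nearest to ACTB was ENST00000395240, of 369 codons, at a distance of 0.189. Its 10 µM values were -0.07 in RNA-seq, -0.19 in monosomes and -0.70 in disomes, where ACTB had -0.0026, -0.14 and -0.83 on this scale. The next was a transcript of 748 codons at 0.210, with 0.08, -0.11 and -0.82.

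Nearest to the mean of the 4 tubulin genes was ENST00000550286, of 423 codons, at 0.165, with 0.04, -0.30 and -0.23 at 10 µM against 0.09, -0.30 and -0.23 for the tubulin mean. The next had 286 codons and lay at 0.189, with -0.04, -0.32 and -0.22. That mean averages alpha tubulins, whose disomes rose, and beta tubulins, whose disomes fell, so no single tubulin gene has it. The files pair neither transcript with a gene name.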
